A study of Mus musculus with 36 samples.

Results

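The 39 genes described here encode the machinery of cell division: the MCM helicase subunits, the enzymes that copy DNA and supply its nucleotides, the cyclins, kinases and motor proteins of mitosis, the regulators of entry into S phase, and the DNA repair factors Polq and Brip1. They were chosen by symbol, with earlier results of these data known. All 39 were found among the 16812 genes of the count table, and all 39 passed the filter on low counts, which 11953 genes passed. Each gene was represented by its RefSeq transcript row with the highest total count. The 36 RNA-seq libraries were made from the blood of Townes sickle cell mice, which are a humanized line in which human globin genes with the sickle mutation stand in for the mouse genes, so that controls and treated animals all carry the disease. The mice received MIR29B, an oligonucleotide that the series title describes as cholesterol-modified, or a scrambled oligonucleotide as control, from a mini-osmotic pump at 2 or 3 mg/kg, and blood was taken at weeks 0, 2 and 4. This makes 12 groups of 3 libraries: scrambled at 2 mg/kg, MIR29B at 2 mg/kg, scrambled at 3 mg/kg and MIR29B at 3 mg/kg, each at every week. The labels give no age or sex, and they do not say whether the week 0 blood preceded the pump, whether the same animals were bled at each week, or whether a library was 1 animal. Globin mRNA was depleted before library preparation.

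A cell that divides first licenses its replication origins by loading the MCM ring, then enters S phase when E2F transcription factors switch on the replication genes, and finally builds a spindle under the control of cyclin B with its kinase CDK1, the Aurora and Polo kinases and the anaphase-promoting complex. The inhibitors p21 (Cdkn1a) and p27 (Cdkn1b) hold the cyclin-dependent kinases in check, and p21 is a classic target of the p53 protein. In blood formation nucleated erythroblasts divide in the marrow and spleen before they expel the nucleus. Reticulocytes and red cells in the circulation do not divide, and transcripts of division genes found in them are carried over from their nucleated precursors.

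Because the agent given was a miR-29b molecule, its seed and the matching places in the members are shown first. The mature mouse miR-29b-3p in RefSeq (GRCm38.p6, chr1:195037091-195037113, plus strand, and a second copy at chr6:31063025-31063047, minus strand) is printed with its seed, bases 2 to 8, in capitals. The sequence and chemistry of the administered oligonucleotide were not given in the sources used here.
miR-29b-3p: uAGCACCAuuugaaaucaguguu

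A match to this seed of 7 or 8 bases was present in the 3' UTR of 6 of the 39 members, and none was the 8-base form. Of 21166 genes with an annotated 3' UTR, 17.1% held such a match and 2.97% held the 8-base form. For the members the 3' UTR of the transcript row used was searched, and for all genes the longest annotated one. The shares of members and of all genes are thus not measured alike. The sites of Cdkn1a and E2f2, the 2 of these members that edgeR called against week 0, are printed as DNA, 5' to 3', with the bases that pair with the seed, or stand opposite its first base, in capitals. The other members with a match were Ccna2, Aurkb, Cenpf and Tpx2, the last with 2 sites.
Cdkn1a: cccgaccccaaagcTGGTGCTca
E2f2: cccttgagtgatgagGGTGCTAc

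The promoters were searched for short words known from cell cycle genes in RefSeq windows of 300 bases, from 250 before to 50 after each annotated start. Windows were at hand for 34 of the 39 members, 38 windows in all, and for 32851 starts over all genes. The word CCAAT, the core of the NF-Y box, was present on either strand in 76.3% of the members' windows and in 37.4% of all windows. The word TTTGAA, the cell cycle genes homology region, was present in 39.5% against 17.9%. At least 1 of the E2F-type words TTTCCCGC, TTTGGCGC and TTTCGCGC was present in 15.8% against 1.8%, and the members that held one were Cdk1, E2f2, Mcm3, Mcm5, Mcm6 and Mcm7. A p53 element of 20 bases, with at most 1 mismatch to the consensus and no spacer, was found in 1 of the 38 windows, that of Cdkn1a, and in 0.09% of all windows; this search was added after the Cdkn1a values had been seen. These matches describe letters, not binding. The 150 bases before the start are shown for Cdkn1a, whose level differed most clearly between weeks, and for Ube2c and Ccnb2, which were among the most abundant members. Capitals mark the word CCAAT and the word TTTGAA on either strand or, in Cdkn1a, the p53 element. The stretches lie at chr17:29090829-29090978 (plus strand), chr2:164769779-164769928 (plus strand) and chr9:70421555-70421704 (minus strand) of GRCm38.p6.
Cdkn1a: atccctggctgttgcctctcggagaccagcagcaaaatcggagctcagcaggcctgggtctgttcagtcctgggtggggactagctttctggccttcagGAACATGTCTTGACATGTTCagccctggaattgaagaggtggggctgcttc
Ube2c: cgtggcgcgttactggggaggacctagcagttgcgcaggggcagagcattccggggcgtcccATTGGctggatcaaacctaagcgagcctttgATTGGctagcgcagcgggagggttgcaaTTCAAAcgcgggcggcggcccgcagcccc
Ccnb2: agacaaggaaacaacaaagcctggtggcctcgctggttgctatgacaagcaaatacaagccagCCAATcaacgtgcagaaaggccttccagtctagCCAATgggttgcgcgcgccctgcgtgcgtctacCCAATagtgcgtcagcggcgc

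Ccnb2 held 3 CCAAT words, beginning 87, 54 and 21 bases before the start. In Ube2c the reverse complement of CCAAT began 88 and 57 bases before the start, and that of TTTGAA 29 bases before it. The p53 element of Cdkn1a began 51 bases before the upstream of its 2 annotated starts.

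The total per library ran from 10.7 M to 45.65 M counts, with a median of 29.1 M. The share of ribosomal RNA was 1.39% to 15.04% and passed 5% in 3 libraries: replicate 1 of week 0, 2 mg/kg scrambled, and replicates 2 and 3 of week 2, 2 mg/kg MIR29B. Within groups, log2 levels of replicate libraries correlated across genes at 0.83 to 0.96, and the biological coefficient of variation was 0.5. The cells are labelled erythrocytes, and the summed level of 10 late erythroid (reticulocyte) markers lay between 118000 and 304500 CPM (counts per M of library total, scaled here by the trimmed mean of M-values, TMM). White cells were also present: 8 mature neutrophil markers summed to 164.7 to 2806 CPM. The 5 markers of blood stem and progenitor cells summed to at most 4.72 CPM: Kit was at 0 in 13 of the 36 libraries, Cd34 in 16, Meis1 in 16 and Hlf in 19, whereas Flt3, at a median of 1.119 CPM, was at 0 in 1. Of 9 granule genes of immature neutrophils, Elane was at 0 in 31 libraries, Mpo in 24, Ctsg in 22 and Prtn3 in 7. The other 5, Ltf, Camp, Ngp, Lcn2 and Chil3, were present in all 36 libraries with medians of 4.242 to 19.6 CPM.

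The members were present at very unequal levels. Averaged over the 36 libraries, 13 members exceeded 10 CPM and 14 lay under 1 CPM. Per kilobase of transcript, the highest mean level was that of E2f2, an E2F family transcription factor that takes part in the last divisions of erythroblasts, at 323.9 CPM per kb. Ube2c, the ubiquitin-conjugating enzyme of the anaphase-promoting complex, followed at 306.5 CPM per kb. Nusap1, a spindle microtubule protein, came next at 40.47 CPM per kb. These were followed by Ccnb2 (cyclin B2) at 22.57, Cdkn1b at 21.93, Tyms (thymidylate synthase) at 20.96, Birc5 (survivin, of the chromosomal passenger complex) at 19.79 and Ccnd3 (cyclin D3) at 17.1 CPM per kb. The lowest were Polq, an error-prone DNA repair polymerase, at 0.0229 CPM per kb and Brip1, a helicase of crosslink repair, at 0.03118 CPM per kb.

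Some genes that act together in a dividing cell stood at similar levels in this blood and others at unequal ones; the pairs given here were chosen after their values were seen. Mcm3 to Mcm6 averaged 0.7875 to 0.8571 CPM per kb, the motors Kif11 and Kif20a 0.1672 and 0.1727, and the checkpoint genes Bub1 and Bub1b 0.07559 and 0.08762. Mcm2 averaged 8.908 CPM per kb, whereas Mcm3 to Mcm7, its partners in the same helicase ring, averaged 0.7875 to 2.113 CPM per kb. Ccnb2 stood at 22.57 CPM per kb and Ccnb1 (cyclin B1) at 0.3294. Their kinase Cdk1 stood at 0.09515 CPM per kb. Ube2c stood at 306.5 CPM per kb and Cdc20, an activator of the same complex, at 0.2127. E2f2 stood at 323.9 and E2f1 at 0.2872 CPM per kb. Mki67, the gene of the Ki-67 proliferation antigen, stood at 5.228 and Top2a (topoisomerase II alpha) at 0.3467 CPM per kb. Rrm2 and Rrm1, the small and large subunits of ribonucleotide reductase, stood at 2.726 and 0.6928 CPM per kb. These are means over all groups, and levels per kilobase depend on the transcript chosen to represent each gene.

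**Figure D1:**
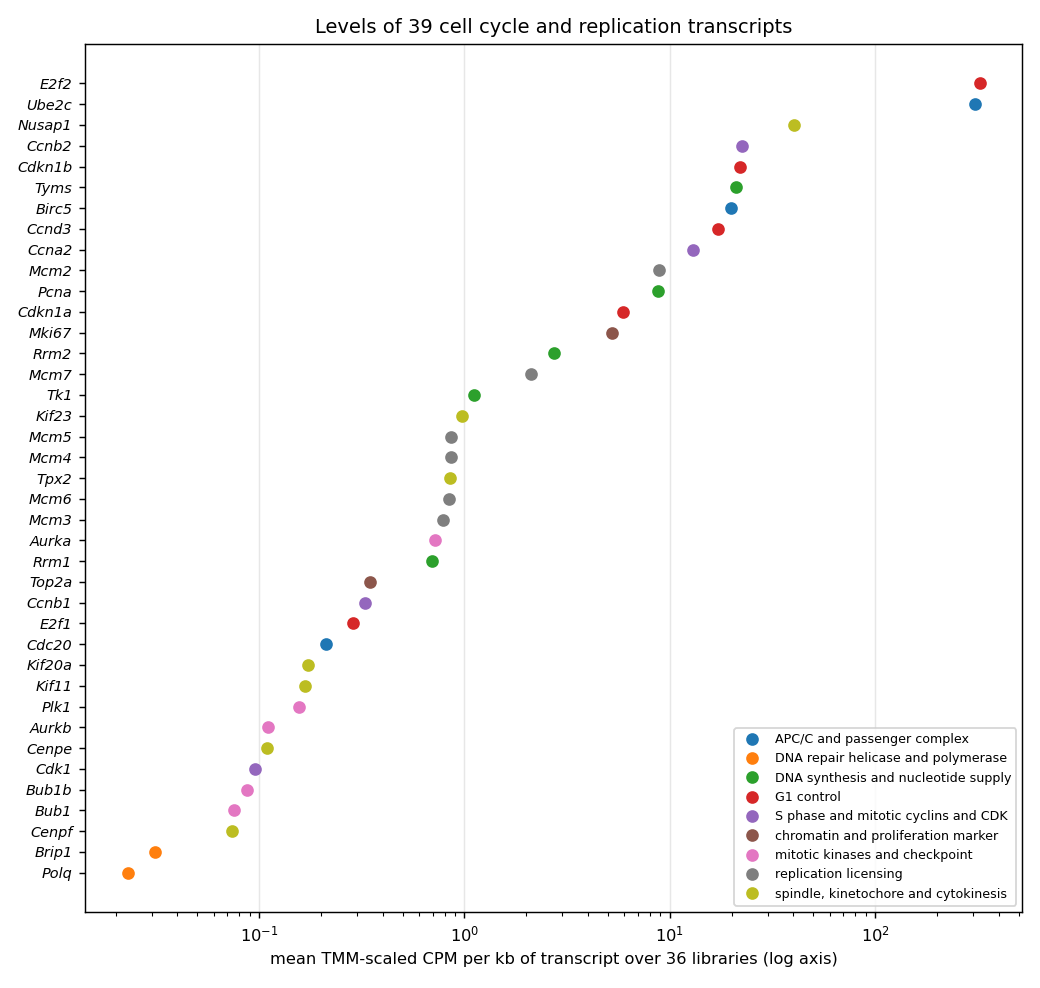
Mean TMM-scaled CPM per kb of transcript over the 36 libraries (log axis) for each of the 39 members, coloured by role. E2f2 (323.9) and Ube2c (306.5) stand apart at the top, and Brip1 (0.03118) and Polq (0.0229) at the bottom.

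Across the weeks, 5 of the 39 members passed the test in at least 1 comparison, and 34 passed in none. The same count was not made over all genes, whose shares in each comparison are given below. Cdkn1a rose from week 0 to week 2 and to week 4 in both arms, E2f2 rose from week 0 to week 2 with MIR29B, and Birc5 fell from week 0 to week 4 with MIR29B. Polq and Brip1 fell from week 0 to week 2 with the scrambled oligonucleotide, on very few counts. Comparisons were made with edgeR's quasi-likelihood test on all 36 libraries, averaged over the 2 doses (6 libraries against 6), with p-values adjusted over all 11953 genes (Benjamini-Hochberg) and a threshold of 0.05 for a call.

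In the MIR29B arm, 2 members were higher at week 2 than at week 0 and 0 were lower, where 5.44% of all genes were called (3.45% higher and 1.99% lower). In the scrambled arm at week 2, 1 member was higher and 2 were lower, where 3.21% of all genes were called (2.11% higher and 1.1% lower). At week 4, 1 member was higher and 1 lower with MIR29B, where 3.09% of all genes were called (2.64% higher and 0.443% lower), and 1 member was higher and 0 were lower with scrambled, where 0.46% were called (0.36% higher and 0.1% lower). As shares of the 39 members these counts are 5.13%, 7.69%, 5.13% and 2.56%, and Cdkn1a alone accounts for 4 of the 8 calls. The median log2 fold change of the 39 members was -0.08 and -0.21 at week 2 (MIR29B and scrambled) and -0.23 and -0.05 at week 4. Over all genes tested the same medians were -0.05, -0.01, -0.01 and -0.05. All weeks share the week 0 libraries of their arm, and the labels record no batch or date, so the week of sampling and any handling difference between weeks cannot be told apart. In whole blood a change in the number of cells of a type and a change in RNA per cell cannot be told apart either.

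**Figure D2:**
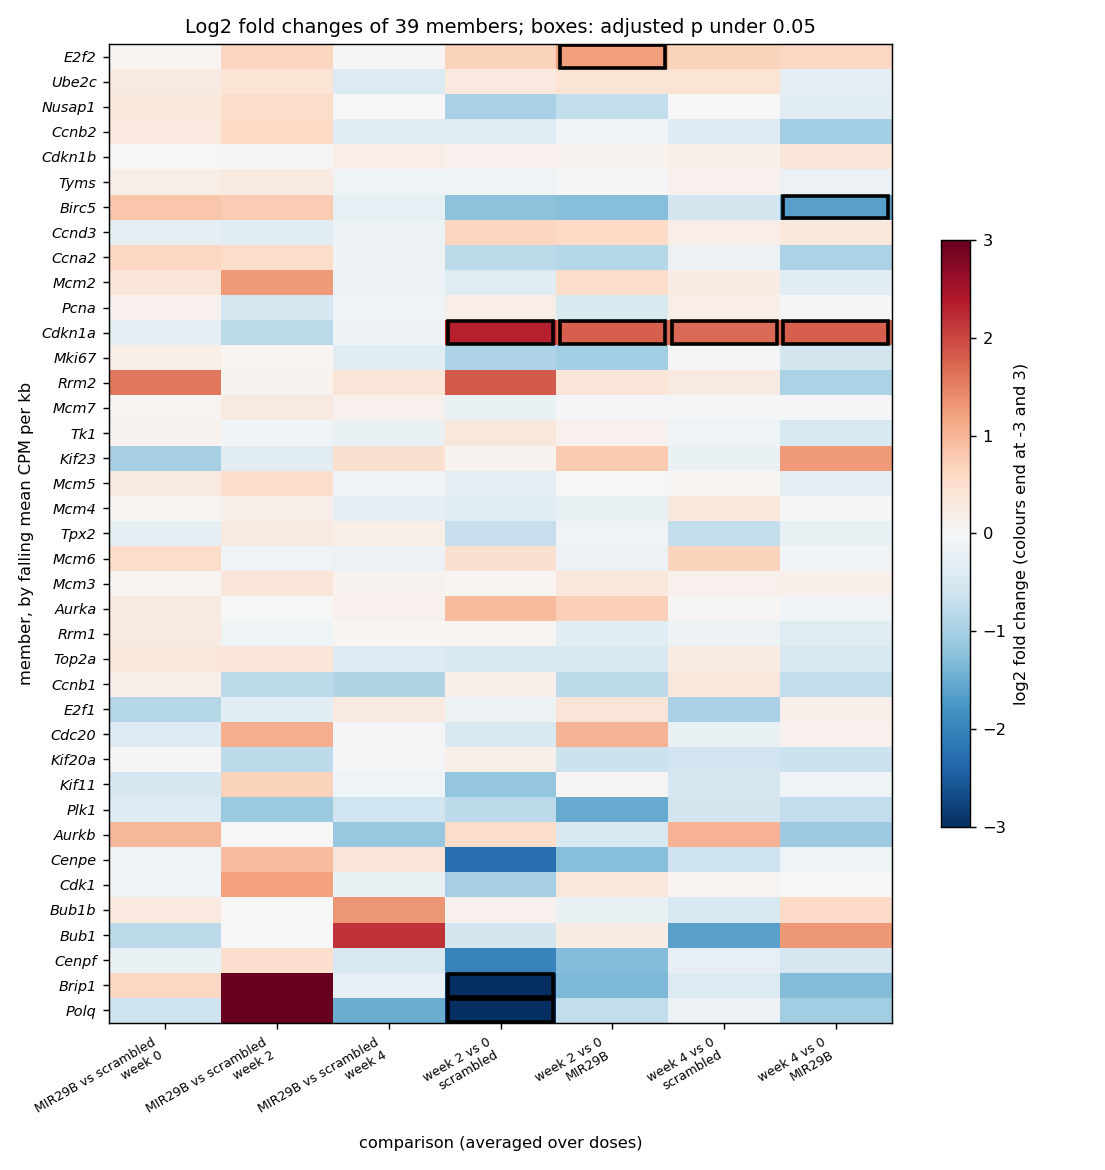
Log2 fold changes (colour, from -3 in blue to 3 in red) of the 39 members (rows, by falling mean CPM per kb) in 3 comparisons of MIR29B with scrambled and 4 comparisons with week 0 (columns), each averaged over doses. The 8 boxed cells passed an adjusted p of 0.05: Cdkn1a in the 4 comparisons with week 0, E2f2, Birc5, Polq and Brip1 in 1 each, and none in the comparisons of arms.

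The G1 regulators held the clearest change. Cdkn1a (chr17:29090979-29100722), which encodes the kinase inhibitor p21, lay at 1.432, 2.928 and 6.136 CPM (lowest, median and highest of 6 libraries) at week 0 with MIR29B and at 1.344, 4.209 and 7.409 CPM at week 0 with scrambled. At week 2 the same values were 8.412, 11.52 and 15.44 CPM with MIR29B and 9.645, 15.33 and 67.85 CPM with scrambled. At week 4 they were 9.019, 12.29 and 14.66 CPM and 7.992, 14.69 and 19.13 CPM. All 24 libraries of weeks 2 and 4 were thus above all 12 libraries of week 0, in both arms and at both doses. With MIR29B the log2 fold change was 1.79 ± 0.40 (SE) at week 2 (edgeR adjusted p = 0.00615) and 1.80 ± 0.40 at week 4 (edgeR adjusted p = 0.00631). With scrambled it was 2.34 ± 0.40 at week 2 (edgeR adjusted p = 0.00197) and 1.69 ± 0.39 at week 4 (edgeR adjusted p = 0.032). The difference between arms was -0.55 ± 0.54 at week 2 and 0.11 ± 0.54 at week 4 (edgeR adjusted p = 0.932 and 0.986). The highest value, 67.85 CPM, belonged to replicate 1 of week 2, 3 mg/kg scrambled; without that library the scrambled change at week 2 was 1.69. The scrambled call at week 4 was lost when any of 8 of its 12 libraries was left out (adjusted p from 0.02 to 0.145 over the 12 fits), and the other 3 calls were kept in all 12 fits each.

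Mature neutrophil markers moved over the same weeks as Cdkn1a. Their summed level had medians of 308.4, 874.1 and 812.9 CPM at weeks 0, 2 and 4 with MIR29B (ranges 164.7 to 542.1, 733.2 to 1599 and 535.4 to 1207) and of 616.4, 2003 and 1005 CPM with scrambled (ranges 175.5 to 1108, 848.2 to 2806 and 434.6 to 1608). Of the 8 markers, 6 and 4 rose at week 2 (MIR29B and scrambled) and 4 and 1 at week 4. Among all genes tested, 3.45% and 2.11% were called higher at week 2 and 2.64% and 0.36% at week 4. In either direction 0.46% to 5.44% of all genes were called in these 4 comparisons. The late erythroid sum had medians of 226700, 218600 and 239500 CPM with MIR29B and 206700, 163500 and 263800 CPM with scrambled, with 0 of 10 markers called. The 9 immature neutrophil granule genes summed to medians of 33.5, 89.27 and 56.37 CPM with MIR29B and 66, 189.5 and 104.9 CPM with scrambled. Of the 6 that were tested, 1 rose at week 2 in each arm and 0 at week 4, with median log2 fold changes of 1.15 and 1.09 at week 2 (MIR29B and scrambled) and 0.63 and 0.68 at week 4. The part of these cell types in the Cdkn1a values was not tested.

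E2f2 (chr4:136172274-136196057) lay at 639.6, 1003 and 1505 CPM (lowest, median, highest) at week 0 and at 1522, 2341 and 3387 CPM at week 2 with MIR29B, so that the 6 libraries of each week did not overlap. At week 4 it lay at 878.2, 1664 and 2028 CPM. With scrambled the values were 522.3, 846.5 and 1849 CPM at week 0, 316.6, 1586 and 2401 CPM at week 2, and 820.9, 1763 and 1881 CPM at week 4, and the weeks overlapped. The log2 fold change with MIR29B was 1.25 ± 0.35 (SE) at week 2 (edgeR adjusted p = 0.0301) and 0.63 ± 0.35 at week 4 (edgeR adjusted p = 0.359). With scrambled it was 0.68 ± 0.35 at week 2 and 0.66 ± 0.35 at week 4 (edgeR adjusted p = 0.267 and 0.548), and the difference between arms at week 2 was 0.57 ± 0.49 (edgeR adjusted p = 0.925). The call was lost without any 1 of 6 libraries, and without the 3 libraries over 5% ribosomal RNA the change was 1.11 (edgeR adjusted p = 0.235).

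The other G1 regulators did not pass. Cdkn1b was the steadiest of them, with medians of 45.27, 52.96 and 60.78 CPM at weeks 0, 2 and 4 with MIR29B and 46.89, 46.88 and 51.27 CPM with scrambled, and an extreme range of 34.25 to 81.58 CPM. Ccnd3, which drives G1 with CDK4 and CDK6 and is known to set the number of divisions of erythroblasts, had medians of 25.18, 35.35 and 30.38 CPM with MIR29B and 28.04, 43.09 and 36.1 CPM with scrambled. At week 2 with MIR29B all 6 libraries of Ccnd3 (31.47 to 43.31 CPM) were above those of week 0 (18.91 to 30.2 CPM), but the log2 fold change of 0.59 ± 0.24 did not pass (edgeR adjusted p = 0.159). E2f1 had medians between 0.5773 and 1.141 CPM.

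Birc5 (chr11:117849237-117855743) lay at 12.17, 28.2 and 105.5 CPM at week 0, at 11.99, 13.88 and 25.15 CPM at week 2 and at 3.735, 11.54 and 22.28 CPM at week 4 with MIR29B. With scrambled it lay at 6.8, 19.32 and 43.94 CPM, at 4.75, 5.48 and 19.01 CPM and at 7.423, 15.21 and 22.17 CPM. All weeks overlapped. The fall at week 4 with MIR29B was -1.63 ± 0.44 (SE) on the log2 scale (edgeR adjusted p = 0.0329). At week 2 the values were -1.28 ± 0.44 and -1.22 ± 0.44 with MIR29B and scrambled (edgeR adjusted p = 0.0808 and 0.11; the first was called by DESeq2, adjusted p = 0.0288, and both without the filter on low counts, edgeR adjusted p = 0.00263 and 0.00508), and at week 4 with scrambled -0.56 ± 0.44 (edgeR adjusted p = 0.716). The highest library, at 105.5 CPM, was replicate 2 of week 0, 2 mg/kg MIR29B. Leaving out single libraries moved the week 4 value between -2.04 and -1.17, and the call was lost without any 1 of 7 of them. Replicate 2 of week 0, 2 mg/kg MIR29B also held the highest levels of Ube2c (614.7 CPM), Ccna2 (121 CPM), Ccnb2 (100 CPM) and Tyms (121 CPM), and its share of ribosomal protein counts was 12.28%, the second highest of the 36. Without it and the library with the highest such share, replicate 1 of week 2, 3 mg/kg scrambled at 15.71%, the week 4 value of Birc5 with MIR29B was -1.16 (edgeR adjusted p = 0.132), and Birc5 was called at week 2 with scrambled instead (-1.66, edgeR adjusted p = 0.0439). Without the libraries over 5% ribosomal RNA the week 4 value with MIR29B was -1.65 (edgeR adjusted p = 0.0542). Replicate 2 of week 0, 2 mg/kg MIR29B also had the highest sum of 13 early erythroid precursor markers, 17490 CPM against 13300 CPM in the next library. By week this sum had medians of 9659, 8612 and 6940 CPM with MIR29B (ranges 5117 to 17490, 6716 to 10430 and 4550 to 10550) and of 6209, 5774 and 7366 CPM with scrambled (ranges 5050 to 13300, 3022 to 11330 and 4748 to 9043). Of the 12 such markers tested, 1 fell at week 2 with scrambled, where 1.1% of all genes were called lower. In the other 3 comparisons with week 0, where 0.46% to 5.44% of all genes were called, 0 of the 12 were called. The part of erythroid precursors in the Birc5 values was not tested.

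**Figure D3:**
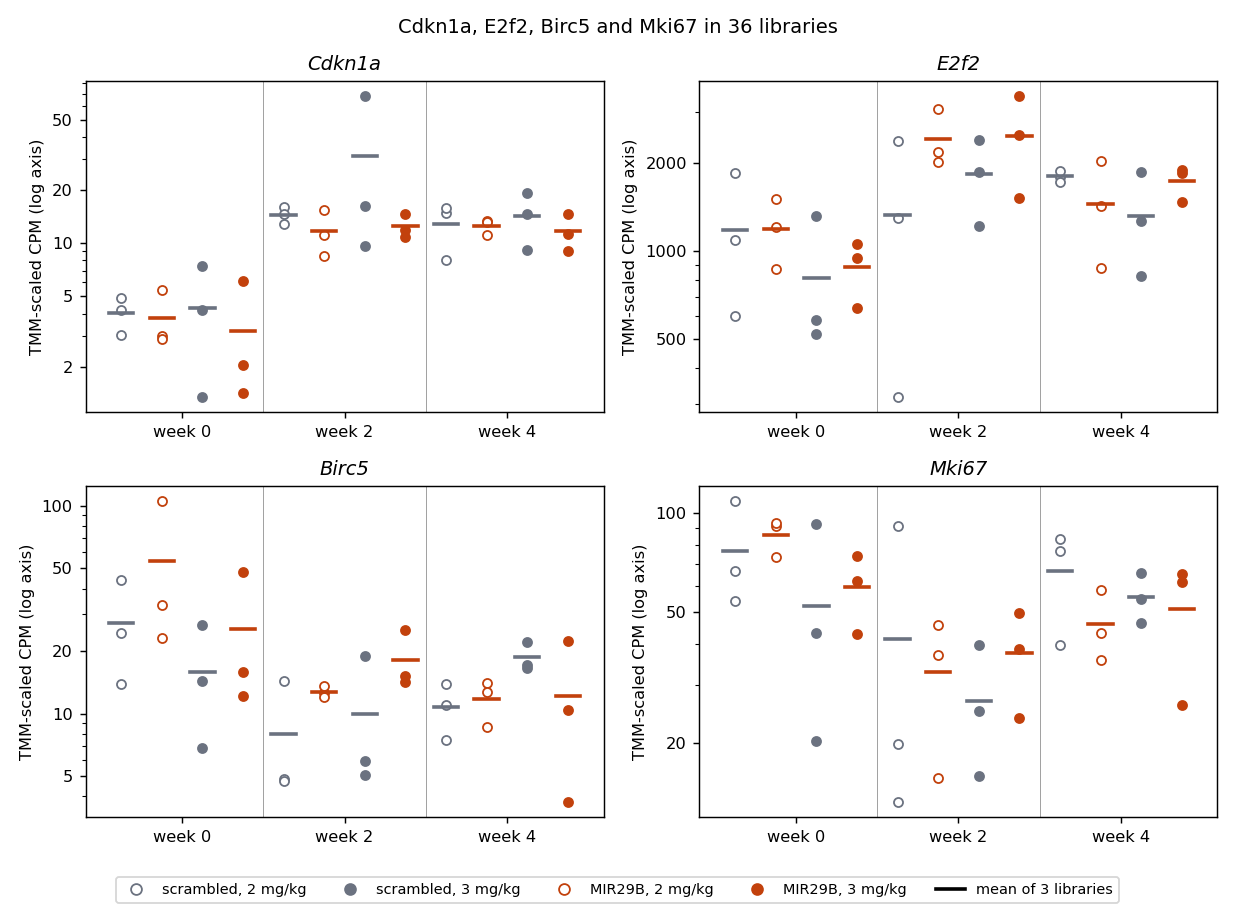
TMM-scaled CPM (log axis) of Cdkn1a, E2f2, Birc5 and Mki67 in each of the 36 libraries by week, with open points for 2 mg/kg, filled points for 3 mg/kg and bars for the means of 3 libraries. For Cdkn1a no library of week 2 or 4 lies below 7.992 CPM and none of week 0 above 7.409 CPM, while the weeks overlap for Birc5 and Mki67.

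The proliferation markers Mki67 and Top2a were not called by edgeR. Mki67 lay at 42.9, 73.72 and 92.8 CPM (lowest, median, highest) at week 0, at 15.73, 37.93 and 49.65 CPM at week 2 and at 26.21, 50.83 and 64.99 CPM at week 4 with MIR29B. With scrambled it lay at 20.39, 60.32 and 108.4 CPM, at 13.26, 22.51 and 90.94 CPM and at 39.67, 60.1 and 82.99 CPM. The log2 fold changes at week 2 were -1.03 ± 0.38 and -0.92 ± 0.38 (edgeR adjusted p = 0.114 and 0.17; the first was called by DESeq2, adjusted p = 0.0435, and without the filter on low counts, edgeR adjusted p = 0.023), with the weeks overlapping in both arms. Top2a, which untangles replicated chromosomes, had medians between 1.283 and 2.285 CPM in the 6 combinations of week and arm, and its changes from week 0 lay between -0.48 and 0.25.

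Among the cyclins, Ccna2 (cyclin A2) had medians of 59.96, 33.73 and 30.46 CPM at weeks 0, 2 and 4 with MIR29B and 39.46, 21.84 and 34.44 CPM with scrambled. Ccnb2 had medians of 46.71, 43.51 and 23.22 CPM with MIR29B and 36.39, 21.89 and 25.69 CPM with scrambled. The changes nearest to the threshold were both at week 4 with MIR29B, -0.94 ± 0.33 for Ccna2 and -1.01 ± 0.33 for Ccnb2 (edgeR adjusted p = 0.118 and 0.0819). Ccnb2 was called there by DESeq2 (-1.07, adjusted p = 0.0309), and both genes were called without the filter on low counts (edgeR adjusted p = 0.0418 and 0.0252). Ccna2 at week 2 with MIR29B was called without TMM scaling (-1.02, edgeR adjusted p = 0.0306). Ccnb1 and Cdk1 lay under 2.26 and 1.33 CPM in every library.

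The spindle, kinetochore and cytokinesis group was dominated by Nusap1, whose medians were 163.7, 97.35 and 111 CPM with MIR29B and 118.1, 56.33 and 116.3 CPM with scrambled. Its changes at week 2 were -0.73 ± 0.33 and -0.97 ± 0.33 (edgeR adjusted p = 0.21 and 0.0962). The second was called by DESeq2 (-0.95, adjusted p = 0.0467) and without the filter on low counts (edgeR adjusted p = 0.0393). The kinetochore proteins Cenpe and Cenpf, each under 2.55 CPM in every library, had changes of -2.29 ± 0.73 and -2.01 ± 0.70 at week 2 with scrambled (edgeR adjusted p = 0.073 and 0.0999; both were called by DESeq2, adjusted p = 0.0138 and 0.0279, and Cenpe without the filter on low counts, edgeR adjusted p = 0.022). The median over the 7 genes of this group, which also holds the motors Kif11, Kif20a and Kif23 and the spindle assembly factor Tpx2, was -0.64 with MIR29B and -0.97 with scrambled at week 2, then -0.23 and -0.51 at week 4. Of these 7 genes edgeR called 0 in the 4 comparisons, where it called 0.46% to 5.44% of all genes. DESeq2 called Cenpe, Cenpf and Nusap1 at week 2 with scrambled. Kif23 at week 4 with MIR29B, 1.27 ± 0.44 (edgeR adjusted p = 0.107), was called without the filter on low counts (edgeR adjusted p = 0.0334). Of the kinases and checkpoint genes Aurka, Aurkb, Plk1, Bub1 and Bub1b, 0 were called, and their summed level stayed between 0.7857 and 4.515 CPM. Ube2c, at 120.4 to 614.7 CPM, had medians of 268.2, 390.5 and 218.4 CPM with MIR29B and 232.7, 265.3 and 285.5 CPM with scrambled, with 0 calls.

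Replication genes gave no call against week 0 with edgeR or with DESeq2: 0 of the 6 MCM genes and 0 of the 5 genes of DNA synthesis and nucleotide supply were called in either arm. In these comparisons edgeR called 0.46% to 5.44% of all genes, so 0 calls in lists this short tell little about these genes. Tyms, which makes thymidylate, had medians between 49.94 and 67.62 CPM. Pcna, the sliding clamp of the replication fork, lay at 9.644, 14.48 and 18.86 CPM at week 0, at 8.498, 10.31 and 11.68 CPM at week 2 and at 11.19, 12.23 and 17.16 CPM at week 4 with MIR29B. With scrambled it lay at 10.33, 12.19 and 16.2 CPM, at 11.88, 13.23 and 20.8 CPM and at 9.911, 14.06 and 18.51 CPM. Rrm2 was the most scattered of the group, from 0.4492 to 63.45 CPM, and its highest value was again in replicate 1 of week 2, 3 mg/kg scrambled. Its log2 fold change at week 2 with scrambled was 1.85 ± 0.77 (edgeR adjusted p = 0.169), which was called without the filter on low counts (1.85 ± 0.38, edgeR adjusted p = 0.000191). The same library held the highest Tk1 (thymidine kinase, 7.842 CPM) and Ccnd3 (77.47 CPM).

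Polq and Brip1 were called lower at week 2 than at week 0 with scrambled. Each had 2 counts in all at week 2, both in a single library, against 40 (Polq) and 34 (Brip1) counts at week 0. The ratio of week 2 to week 0 was 0.0491 for Polq (exact 95% interval 0.00575 to 0.189) and 0.0577 for Brip1 (0.00672 to 0.225), intervals that cover counting error only. All counts in the table were even, and with every count halved the intervals widened to 0.00118 to 0.307 and 0.00138 to 0.368, and neither gene passed the filter on low counts, as was the case with a minimum count of 20. The fitted changes were -4.64 ± 1.23 and -4.24 ± 1.22 (edgeR adjusted p = 0.037 and 0.0475), and both calls were lost without TMM scaling, without the libraries over 5% ribosomal RNA and without the 2 libraries of highest ribosomal protein share (edgeR adjusted p = 0.0753 and 0.102 in the last). That of Brip1 was also lost without the filter on low counts (edgeR adjusted p = 0.0551). DESeq2 gave neither an adjusted p. Both genes lay under 1.05 CPM in every library. Their highest values were 0.664 CPM (Polq) and 1.048 CPM (Brip1) at week 0, and 0.4197 CPM for each at week 2. At week 4 they were 0.571 and 0.3979 CPM. The filter on low counts needs enough counts in as few as 3 libraries, and libraries of weeks other than week 2 carried both genes past it. The filter thus favoured a fall at week 2, and the 2 calls are not independent of it.

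Between MIR29B and scrambled, 0 of the 39 members were called by edgeR in any of the 9 comparisons (each dose at each week, and each week averaged over doses), and 0% of all genes were called in each. DESeq2 also called 0 members in these 9 comparisons. An unadjusted p under 0.05 was reached by 0, 3 and 2 members at week 0 (2 mg/kg, 3 mg/kg and averaged). The same counts were 3, 6 and 5 for week 2 and 0, 1 and 1 for week 4. In the averaged comparisons this was 5.13%, 12.8% and 2.56% of the members against 7.13%, 9.83% and 2.64% of all genes. At 2 and 3 mg/kg it was 0% and 7.69% of the members at week 0, against 4.63% and 3.41% of all genes. At week 2 it was 7.69% and 15.4% against 8.22% and 7.09%, and at week 4 0% and 2.56% against 2.25% and 3.2%. The median log2 fold change of the members was 0.11, 0.26 and -0.14 at weeks 0, 2 and 4, against -0.05, -0.09 and 0.03 over all genes.

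The smallest p among members was that of Mcm2 (chr6:88883474-88898780) at week 2. It lay at 30.88, 57.42 and 32.4 CPM with MIR29B and at 12.58, 15.18 and 25.39 CPM with scrambled at 2 mg/kg, and at 30.64, 78.2 and 54.38 CPM with MIR29B and 35.53, 7.235 and 19.98 CPM with scrambled at 3 mg/kg. The 2 mg/kg groups did not overlap, and at 3 mg/kg 1 scrambled library was above 1 MIR29B library. The averaged log2 fold change was 1.28 ± 0.40 (SE; edgeR adjusted p = 0.27). At week 0 it was 0.37 ± 0.40 and at week 4 -0.18 ± 0.40. The other MCM genes had values of -0.10 to 0.52 at week 2. Without the filter on low counts Mcm2 was called (edgeR adjusted p = 0.012).

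Pcna, the other replication gene with an arm difference at an unadjusted p under 0.05 at week 2, went the other way. All 6 MIR29B libraries (8.498 to 11.68 CPM) lay below all 6 scrambled libraries (11.88 to 20.8 CPM), with a log2 fold change of -0.53 ± 0.21 (edgeR adjusted p = 0.393). At week 0 the arms overlapped and the difference was 0.13 ± 0.21. Nusap1 at week 2 and 3 mg/kg lay at 103.7, 134 and 85.56 CPM with MIR29B and at 19.37, 48.72 and 61.54 CPM with scrambled, without overlap, and its change of 1.32 ± 0.48 did not pass (edgeR adjusted p = 0.633). At 2 mg/kg its values were 91.04, 110.8 and 52.65 CPM against 51.11, 163 and 76.49 CPM, with overlap. Brip1 at week 2 had a fitted difference of 3.53 ± 1.22 (edgeR adjusted p = 0.332), which rested on 18 counts with MIR29B against 2 with scrambled.

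Of the members with a miR-29 seed match, none was lower with MIR29B beyond the threshold. At week 2 the averaged log2 differences were -0.82 ± 0.38 for Cdkn1a, 0.65 ± 0.35 for E2f2, 0.54 ± 0.33 for Ccna2, 0.28 ± 0.37 for Tpx2, 0.51 ± 0.71 for Cenpf and -0.01 ± 0.92 for Aurkb (edgeR adjusted p from 0.476 to 1). At week 4 they were -0.16, 0.04, -0.16, 0.18, -0.48 and -1.13.

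**Figure D4:**
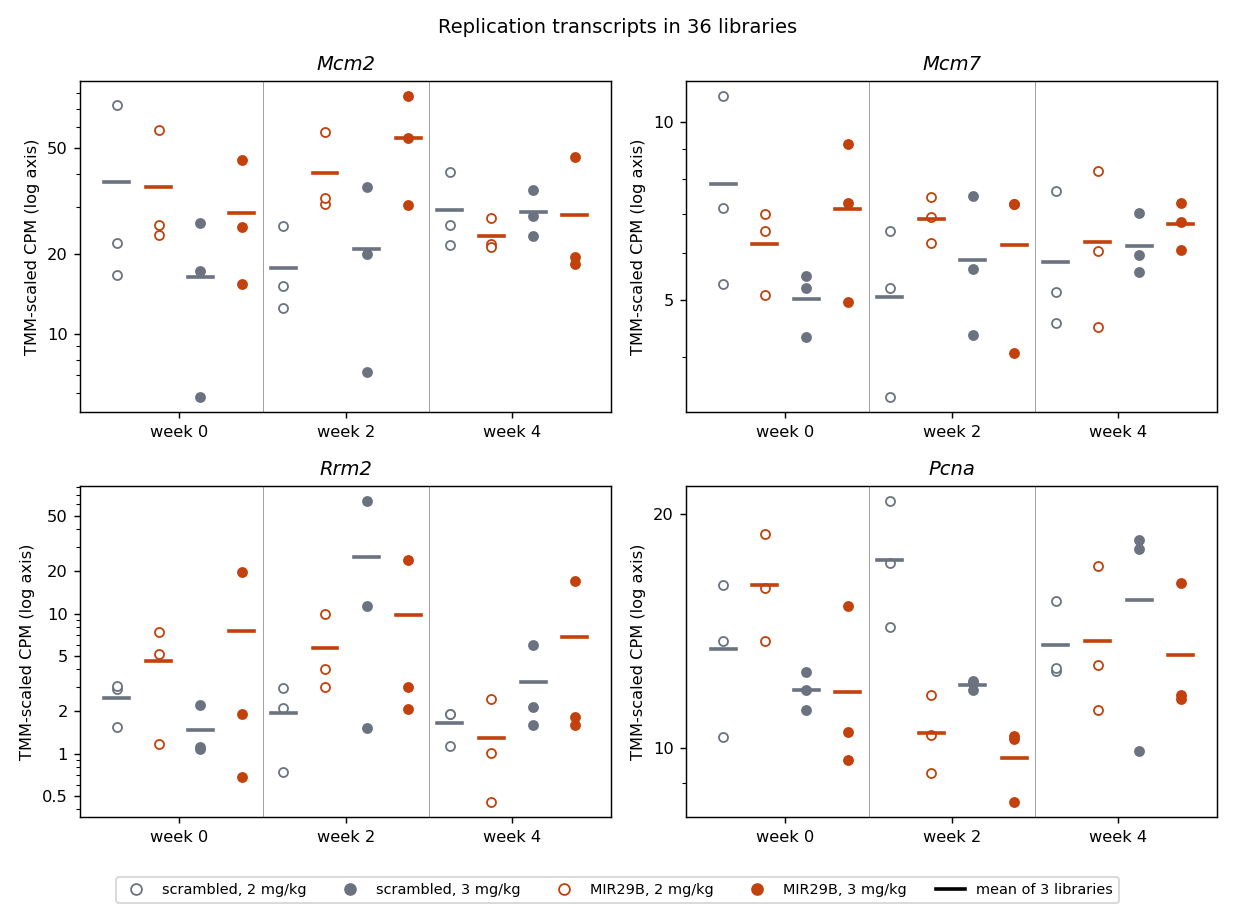
TMM-scaled CPM (log axis) of Mcm2, Mcm7, Rrm2 and Pcna in each of the 36 libraries by week, with open points for 2 mg/kg, filled points for 3 mg/kg and bars for the means of 3 libraries. At week 2 the MIR29B libraries of Mcm2 lie mostly above and those of Pcna all below the scrambled libraries, and Rrm2 reaches 63.45 CPM in 1 scrambled library.

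The remaining contrasts gave no call among the members. From week 2 to week 4, 0 members and 0% of all genes were called by edgeR in either arm, and DESeq2 called 0 members. The unadjusted p was under 0.05 for 3 members with MIR29B and 8 with scrambled. That was 7.69% and 20.5% of the members, against 11% and 10.8% of all genes. The difference between arms in the change from week 0 was called for 0 members and 0% of all genes at both weeks. DESeq2 called 0 members. An unadjusted p under 0.05 was reached by 3 members at week 2 and 2 at week 4. That was 7.69% and 5.13% of the members, against 5.61% and 6.03% of all genes. Between 3 and 2 mg/kg, averaged over weeks 2 and 4, 0 members and 0% of all genes were called in either arm. DESeq2 called 0 members, and 2 members in each arm were at an unadjusted p under 0.05. That was 5.13% of the members in each arm, against 2.13% of all genes with MIR29B and 5.43% with scrambled. The largest dose difference among members was that of Rrm2, 2.35 ± 0.78 with scrambled and 1.60 ± 0.75 with MIR29B (edgeR adjusted p = 0.82 and 1); 1 scrambled library at 63.45 CPM and 2 MIR29B libraries at 24.25 and 17 CPM held its highest values at 3 mg/kg.

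Further genes of the same pathways, none of them members and in lists chosen with earlier results of these data known, were also compared with week 0. Of all genes tested, 5.44% and 3.21% were called at week 2 (MIR29B and scrambled) and 3.09% and 0.46% at week 4. Of 42 origin and fork genes, Cdt1, a licensing factor, rose at week 2 with MIR29B (1.12 ± 0.29) and Hells, a chromatin remodeller, fell (-4.15 ± 1.21), and 0 were called in the other 3 comparisons. Of 50 tested mitosis genes, Smc4, a condensin subunit, fell at week 2 in both arms (-1.41 ± 0.32 with MIR29B and -1.33 ± 0.32 with scrambled). Cks2, a small partner of the cyclin-dependent kinases, rose at week 2 with scrambled (1.12 ± 0.28) and at week 4 with MIR29B (1.28 ± 0.29), and Cdc26 of the anaphase-promoting complex rose at week 2 with scrambled (1.0 ± 0.27). Of 28 tested G1, RB and E2F genes, Rb1, the retinoblastoma gene, fell at week 2 with MIR29B (-1.03 ± 0.30), and Cdkn2d, a CDK4 and CDK6 inhibitor, rose at week 2 with scrambled (1.31 ± 0.31). Of 22 tested recombination and crosslink repair genes, the 1 call was Fancd2 at week 2 with scrambled (-1.76 ± 0.43). All these passed an edgeR adjusted p of 0.05.

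Of 18 known p53 target genes other than Cdkn1a, a list also chosen with earlier results of these data known, 5 rose at week 2 with MIR29B, 3 at week 2 with scrambled, 6 at week 4 with MIR29B and 1 at week 4 with scrambled, and 0 fell in any of the 4. Of all genes tested, 3.45%, 2.11%, 2.64% and 0.36% were called higher in the same comparisons. Their median log2 fold changes were 0.77, 0.41, 0.48 and 0.54, against -0.05, -0.01, -0.01 and -0.05 over all genes. Plk3, a stress-responsive Polo-like kinase, was called in all 4, with 1.46 ± 0.31, 1.30 ± 0.31, 1.99 ± 0.32 and 1.72 ± 0.31. Gadd45b, a growth arrest and stress gene, was called in 3, with 3.31 ± 0.54 and 1.77 ± 0.50 at week 2 and 3.19 ± 0.54 at week 4 with MIR29B. Bbc3 (PUMA), Ddit4 and Sesn2, which act in cell death and in restraint of mTOR signalling, were called at both weeks with MIR29B, Pmaip1 (Noxa) at week 4 with MIR29B, and Bax at week 2 with scrambled. Gadd45b, Ddit4, Sesn2 and Plk3 are also known to respond to stress signals other than p53. The neutrophil markers given above moved over the same weeks. The sum of 6 monocyte markers had medians of 309.8, 393.1 and 588 CPM at weeks 0, 2 and 4 with MIR29B (ranges 233.5 to 415.7, 312.8 to 592.8 and 422.9 to 853.2). With scrambled the medians were 438.7, 583.9 and 644.6 CPM (ranges 176.2 to 764.9, 389 to 1739 and 375.2 to 915.9). In each of the 4 comparisons 1 of the 6 monocyte markers was called higher. The part of neutrophils and monocytes in the p53 target values was not tested.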

How the data were processed

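The raw counts were deposited by the authors as 1 table of whole numbers per RefSeq transcript row and library. Per the submitters' processing notes, HISAT2 2.0.5 and featureCounts 1.5.0-p3 and the build GRCm38 were used; their settings and strand handling were not given in the sources used here. Every count is even, and the cause was not tested. Of 25856 rows, 25650 were matched to symbols by RefSeq, 132 by GENCODE and 74 by neither. The row with the highest total stood for each gene, leaving 16812 genes. The members and all lists were chosen with earlier results of these data known. edgeR 4.0.16 in R 4.3.3 was fitted to 12 groups (TMM, filterByExpr with a minimum count of 10 and a total of 15). The same fit was also run on simulated counts, with mean levels and spread taken from the real data. For week 2 against week 0 with MIR29B it called 17 of 87 genes given a log2 change of 1 and 94 of 113 given 2. For MIR29B against scrambled at week 2 and 2 mg/kg it called 2 of 87 and 47 of 113. Standard errors (SE) were derived from each fold change and its F statistic. The p-values set differences between groups against the spread between libraries, which may be technical. They treat the libraries as independent, which the labels do not state. Alternatives were DESeq2 1.42.0, its size factors, no TMM, other filters, the mean of a gene's rows, halved counts, a replicate block, and libraries left out. Values are given for every library or range for Birc5, Mki67, Top2a, Pcna, Cdkn1b and Ccnd3, for called members, the 6 most abundant and the 3 with the smallest arm p; pathway genes are named where called, at most 6 per list and comparison.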

Additional observations from a re-analysis of the deposited data

How the results depend on the processing

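The groups of 3 libraries and the coefficient of variation of 0.5 limit what the tests could detect, and members under 1 CPM rest on few counts. Members called against week 0 (week 2 MIR29B 2, week 2 scrambled 3, week 4 MIR29B 2, week 4 scrambled 1) became 4, 6 and 5 without the filter on low counts for the first 3; this setting also called 1 member (Rrm2 or Mcm2) in the arm comparisons at week 0 and 3 mg/kg, week 0 averaged and week 2 averaged, in week 4 against week 2 in both arms and in the dose comparison of both arms. Without TMM the counts were 4 (week 2 MIR29B), 1 (week 2 scrambled) and 0 (week 4 scrambled), and all genes called at week 2 with MIR29B went from 412 higher and 238 lower to 122 and 288, with 348 and 290 under DESeq2's size factors. At week 4 with MIR29B they went from 316 and 53 to 129 and 60, and with scrambled from 43 and 12 to 1 and 1. Medians of all genes lay between -0.14 and 0.12, and without TMM between -0.61 and 0.45. DESeq2 called 4 members at week 2 with MIR29B, 4 at week 2 with scrambled, 3 at week 4 with MIR29B and 1 at week 4 with scrambled. For DESeq2, other filters, halved counts, the replicate block and libraries left out, numbers of all genes called are not given here. A change in the number of members called under these settings thus cannot be told from a change over all genes. A minimum count of 20 or halved counts left 1 at week 2 with scrambled. Without the libraries over 5% ribosomal RNA the counts were 1, 1, 1 and 0, and without the 2 libraries of highest ribosomal protein share, an alternative chosen after seeing the data, 1 at week 4 with MIR29B. Cdkn1a at week 4 with scrambled was 1.26 without TMM (adjusted p = 0.208) and 1.72 without the libraries over 5% ribosomal RNA (adjusted p = 0.112). Leaving out single libraries gave 1 to 2, 1 to 6, 1 to 3 and 0 to 1 members in the 4 comparisons, and 0 to 1 from week 2 to week 4 with scrambled. Polq at week 4 with scrambled turned from -0.17 to 0.15 without the libraries over 5% ribosomal RNA and lay between -0.47 and 0.15 without single libraries, and Brip1 (-0.42) between -0.71 and 0.29; the cause was not tested. Replicate numbers are shared between groups, and the main fit does not use them. In 0 of 22 group pairs did every same-numbered pair correlate above 0.1 (range -0.535 to 0.393). However, 21 of 36 libraries correlated best with their own number, more than an even spread over the 3 numbers would give. Whether libraries of the same number are linked was not tested further. With the replicate block the call of Cdkn1a at week 4 with scrambled was lost (1.62, adjusted p = 0.0517), leaving 0 members there, as was that of Brip1 at week 2 with scrambled (-4.18, adjusted p = 0.0579), where Nusap1 was called instead (-1.09); the block changed no other call of a member.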
